A study of Mus musculus with 6 samples.

Results

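Before the onset of hearing, the supporting cells of the greater epithelial ridge, a transient epithelium beside the inner hair cells, release ATP in bursts. ATP acts on purinergic receptors of the same cells: the P2Y receptors couple through Gq to release of calcium from stores, whereas the P2X receptors are cation channels opened by ATP itself. The rise in calcium opens TMEM16A, a chloride channel encoded by Ano1, and the potassium that leaves with the chloride depolarizes the inner hair cells. Ectonucleotidases on the cell surface end the signal by splitting ATP and ADP. The genes described here are 9 genes of this chain, picked by a list of names with earlier results of these data known, among the 24411 gene symbols measured: the metabotropic receptors P2ry1 and P2ry2, the ionotropic receptors P2rx2, P2rx3, P2rx4 and P2rx7, the channel Ano1, and the ectonucleotidases Entpd1 and Entpd2. All 9 passed the filter on low counts, as did 15303 genes in all.

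RNA was sequenced from the cochlear sensory epithelium of mice at P9, shortly before hearing begins, in 3 libraries of Kir2.1-OE mice and 3 of littermate controls. Kir2.1 is an inwardly rectifying potassium channel that holds the membrane near the potassium equilibrium potential. Kir2.1-OE animals carried 1 copy of each of 2 alleles (Otof rtTA+/-; Kir2.1+/-): a doxycycline-dependent activator driven by the promoter of Otof, a gene of hair cells and chiefly of inner hair cells, and a Kir2.1 transgene that this activator switches on. Controls, called WT in the labels, carried the activator without the transgene (Otof rtTA+/-; Kir2.1+/+). For both groups DOX was given at 0.5 mg/ml in the mothers' drinking water, and the dose that reached the pups is not stated. The groups shared a C57BL/6N background. The activator and the drug were thus common to all 6 libraries, and no library came from animals without them. Each library was 1 pool of 8 cochleae from 4 mice, and n below counts pools. P-values therefore measure the spread between pools, and, as the tissue is a mixture, fewer cells of a type and less RNA per cell cannot be told apart.

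Libraries held between 35430940 and 41205047 assigned reads. Kcnj2, the gene of Kir2.1, had 3612, 3813 and 2213 normalized counts in Kir2.1-OE and 236, 228 and 226 in controls (here and below the values of a group are in the order of replicates 1, 2 and 3), and each library matched its label; reads of the transgene and of the mouse's own gene were not separated. Of all genes tested, 15.5% were called higher and 5.08% lower in Kir2.1-OE at an adjusted p-value under 0.05 (edgeR's quasi-likelihood test, adjusted by Benjamini-Hochberg) and with a fold change above 1.5, and the higher calls made up 75.2% of all calls, or 57.9% under upper quartile scaling. Across genes, which are not independent replicates, the log2 fold change rose with the length of the longest transcript (Spearman rho 0.557 over 15205 genes), so the fold changes of the 9 genes and of the pathway lists are also given with offsets that remove the trend with transcript length and GC content; 6.44% of genes were then called higher and 3.43% lower. The offsets use the longest transcript. Offsets from the median transcript, tried after seeing the data, called 1696 genes higher and 1054 lower, and their values are given beside the others for the 9 genes. Markers of inner hair cells and supporting cells were present in every library. Beside them, the summed markers of spiral ganglion neurons ran from 19010 to 44090 normalized counts in Kir2.1-OE and from 10961 to 16706 in controls, and those of the greater epithelial ridge from 325105 to 341413 and from 383533 to 501065. The 5 markers of the ridge did not move one way, with a median log2 fold change of -0.34 (-0.21 with the offsets). Tectb was called lower (log2 fold change -0.69, and -0.59 with the offsets). Tecta fell the most but had overlapping groups, and it was called lower only with the offsets (-1.74). Epyc (-0.34, and -0.091 with the offsets) was under the fold change threshold. Otoa (0.89) and Otog (0.81) were called higher. With the offsets Otoa was still called (0.75) and Otog was not (-0.21). Their part in the results below was not tested.

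Promoter windows of RefSeq (GRCm38.p6, the mm10 build), running from 250 bases before to 50 bases after an annotated start, were matched for 7 of the 9 genes. They are shown for 2 pairs whose members differed in their values: Ano1 and P2ry1, at the end and the start of the chain, and the neighbours P2rx7 and P2rx4. Both sequences of a pair are read 5′ to 3′ on the gene's own strand, and capitals mark the GC box GGGCGG or its reverse complement CCGCCC. The windows are chr7:144738524-144738823 on the minus strand for Ano1, which lies inside the annotated gene, chr3:61002535-61002834 on the plus strand for P2ry1, chr5:122643677-122643976 on the plus strand for P2rx7, and chr5:122707294-122707593 on the plus strand for P2rx4.
Ano1: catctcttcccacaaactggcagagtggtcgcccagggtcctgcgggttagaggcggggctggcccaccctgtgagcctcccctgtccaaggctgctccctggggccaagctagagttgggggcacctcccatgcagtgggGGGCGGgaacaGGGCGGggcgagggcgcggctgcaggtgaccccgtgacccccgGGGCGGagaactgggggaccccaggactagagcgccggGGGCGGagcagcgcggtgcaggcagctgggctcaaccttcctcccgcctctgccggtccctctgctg
P2ry1: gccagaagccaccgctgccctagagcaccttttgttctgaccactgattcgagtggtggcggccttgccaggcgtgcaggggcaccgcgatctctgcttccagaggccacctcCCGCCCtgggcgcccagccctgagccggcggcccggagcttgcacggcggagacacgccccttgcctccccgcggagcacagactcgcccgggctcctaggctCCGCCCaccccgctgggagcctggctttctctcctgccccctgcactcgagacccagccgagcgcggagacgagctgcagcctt
P2rx7: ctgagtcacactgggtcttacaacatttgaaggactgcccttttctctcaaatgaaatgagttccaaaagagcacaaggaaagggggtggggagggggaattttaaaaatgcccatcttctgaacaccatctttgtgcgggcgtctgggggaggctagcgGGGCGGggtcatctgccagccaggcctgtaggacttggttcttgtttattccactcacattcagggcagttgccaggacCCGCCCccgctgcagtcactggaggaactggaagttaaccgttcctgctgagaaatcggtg
P2rx4: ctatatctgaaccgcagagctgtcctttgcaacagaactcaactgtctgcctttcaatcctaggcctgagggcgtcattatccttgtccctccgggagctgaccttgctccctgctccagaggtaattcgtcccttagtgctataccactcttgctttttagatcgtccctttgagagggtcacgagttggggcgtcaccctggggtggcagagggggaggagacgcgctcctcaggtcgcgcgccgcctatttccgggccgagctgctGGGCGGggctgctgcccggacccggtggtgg
The Ano1 window held 4 GC boxes at 71.7% GC, and the P2ry1 window held 2 at 70.7% GC. The P2rx7 window held 2 at 53.3% GC, and the P2rx4 window 1 at 60.3% GC. Over 32851 windows of the same length the median was 52.7% GC, and 35.7% held a GC box. The TATA box TATAAA, searched on both strands and present in 13.6% of all windows, and the cAMP response element TGACGTCA, present in 1.79%, were not in the windows of the 7 genes. The CCAAT box, present in 37.4% of all windows, was found only in those of Entpd1 among these genes. These matches describe letters in the window and were not tied to the values.

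The 9 genes spanned a wide range of levels. In controls the level, in RPKM computed here from the TMM library size and the longest annotated transcript, was 78.5 ± 17.3 (SD, n = 3) for P2rx2 and 41.6 ± 3.72 for Ano1. P2ry1 followed at 17.1 ± 1.43, P2ry2 at 11.9 ± 0.946, P2rx4 at 9.95 ± 0.623 and Entpd2 at 6.92 ± 0.715. P2rx3 at 3.85 ± 0.848, P2rx7 at 2.97 ± 0.279 and Entpd1 at 2.79 ± 0.291 were lowest, and within this group neighbouring genes overlapped over the 3 control libraries, whereas all neighbours above them did not. In Kir2.1-OE the level was 100.3 ± 15.8 for P2rx2 and 72.2 ± 10.9 for Ano1, and the ranges of these genes, apart in controls, overlapped. P2ry2 at 15.8 ± 1.18 then stood beside P2ry1 at 15.4 ± 1.48, also with overlap. The longest transcript of P2rx4 is a retained intron, and with its longest protein-coding transcript the level was 14.3 ± 0.897 in controls, above P2ry2. The order also depends on the length chosen: with the median transcript length Ano1 was at 206 in controls and P2rx2 at 101.

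**Figure D1:**
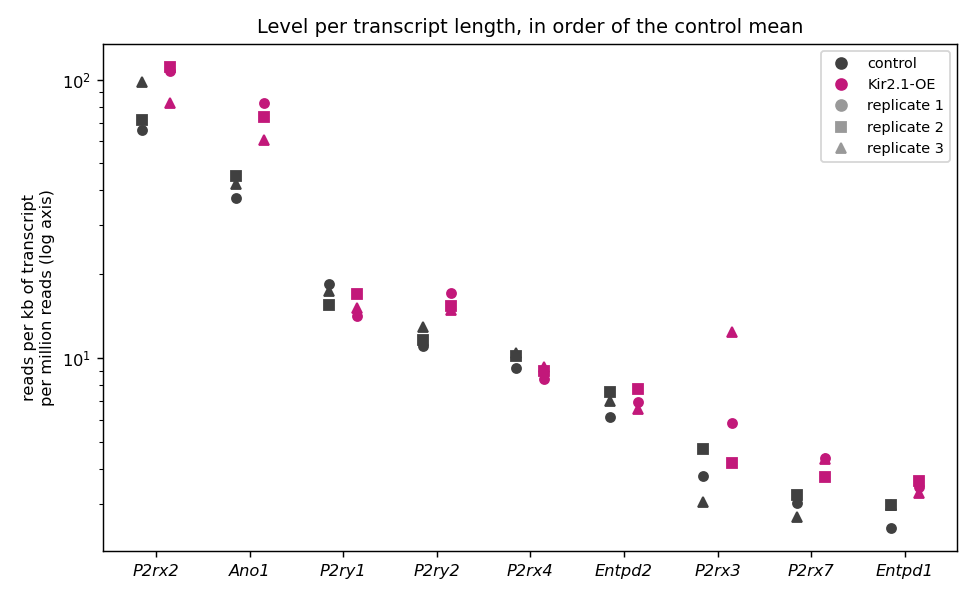
Level of the 9 genes in each library (RPKM by the longest annotated transcript, log axis), with control and Kir2.1-OE pools as points. P2rx2 and Ano1 lie above the other genes in both groups, and Ano1 moves toward P2rx2 in Kir2.1-OE.

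Kir2.1-OE libraries had 2 of the 9 genes called higher and none lower, beside 15.5% and 5.08% of all genes. Without the fold change threshold 5 of 9 had an adjusted p-value under 0.05, beside 50.8% of all genes, and in 4 of 9 the groups did not overlap, beside 61.6% of all genes. The 9 genes had a median log2 fold change of 0.35 and all genes tested one of 0.01. With the offsets 1 of 9 was called higher and none lower, with a median of 0.26. The counts without overlap and at the adjusted p-value thus lay near or below the share of all genes. An exact permutation test of 3 pools against 3 cannot go below 0.10, the value of each gene whose groups did not overlap.

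**Figure D2:**
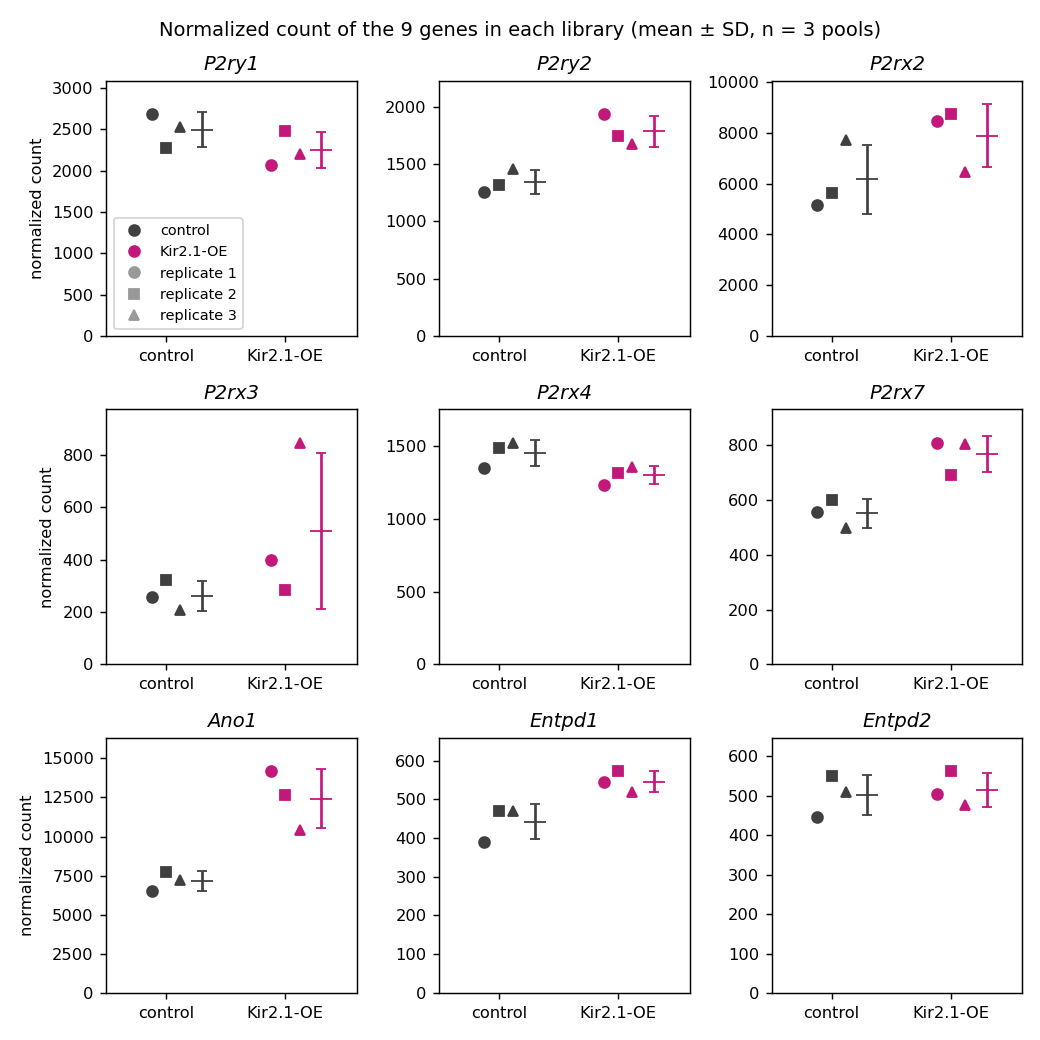
Normalized counts of each gene in the 3 control and 3 Kir2.1-OE pools (points, with mean ± SD beside them, and replicate numbers not taken as pairs). Ano1, P2ry2, P2rx7 and Entpd1 do not overlap between groups, while the high mean of P2rx3 in Kir2.1-OE is set by replicate 3.

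Ano1 (chr7:144588549-144751974, minus strand), whose product is the calcium-activated chloride channel at the end of the chain in supporting cells, was the gene with the firmest rise. It had 14178, 12668 and 10451 normalized counts in Kir2.1-OE and 6487, 7761 and 7246 in controls. Every Kir2.1-OE pool lay above every control pool, with the closest pair being Kir2.1-OE replicate 3 and control replicate 2. The means were 12432 ± 1875 and 7165 ± 641 (SD, n = 3), a fold of 1.74, and the log2 fold change was 0.79 (SE 0.116, 95% interval 0.53 to 1.06, adjusted p = 6.16e-04 by edgeR's quasi-likelihood test). It was called whichever library was left out, and its log2 fold change then ran from 0.68 to 0.89. Under the offsets for length and GC content the log2 fold change was 0.48 (adjusted p = 0.00747), below the fold change threshold. With offsets from the longest protein-coding transcript it was 0.45 (adjusted p = 0.0112), also below it. With median-transcript offsets it was 0.78 (adjusted p = 6.49e-04) and the call was kept. The median annotated transcript of Ano1 has 926 bases, and its longest, which is protein-coding, has 4585. A test against a log2 fold change of 0.6 gave an adjusted p of 0.184.

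P2ry1 (chr3:61002795-61008982, plus strand), the Gq-coupled ADP receptor that starts the calcium response in supporting cells, did not pass the test. Its normalized counts were 2064, 2486 and 2200.4 in Kir2.1-OE and 2683, 2271 and 2535 in controls, and the groups overlapped. The means were 2250.2 ± 215 and 2496 ± 209 (SD, n = 3), with a log2 fold change of -0.15 (SE 0.0916, 95% interval -0.35 to 0.06, adjusted p = 0.200). The value was -0.14 with the offsets (adjusted p = 0.299) but -0.43 with median-transcript offsets (adjusted p = 0.00939), and -0.25 without Kir2.1-OE replicate 2 (adjusted p = 0.0605). The interval without offsets leaves out a rise of the size measured for Ano1. The annotation places 992 exonic bases of P2ry1 beneath Gm37035 on the opposite strand, and the strand setting of the counting is not given in the sources used here.

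P2ry2 (chr7:100996568-101012866, minus strand), a Gq-coupled receptor for ATP and UTP, stood between these. It had 1934, 1744 and 1676 normalized counts in Kir2.1-OE and 1252, 1316 and 1461 in controls. The groups did not overlap, and the log2 fold change was 0.41 (SE 0.0868, 95% interval 0.22 to 0.61, adjusted p = 0.00377), under the fold change threshold; with the offsets it was 0.26 (adjusted p = 0.0366), and with median-transcript offsets 0.17 (adjusted p = 0.124). The ratio of the channel at the end of the chain to the receptor at its start differed between the groups. Ano1 to P2ry1 was 6.87, 5.09 and 4.75 in Kir2.1-OE and 2.42, 3.42 and 2.86 in controls, 1.92 times higher on average and without overlap. This ratio does not depend on library scaling, but no offsets for length and GC content were applied to it or to the other ratios. With the offsets the log2 fold change was 0.48 for Ano1 and -0.14 for P2ry1. The ratio is 1 of 5 chosen after the values were seen. Its exact permutation p was 0.10, the smallest possible, and 0.125 after Benjamini-Hochberg adjustment over the 5.

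**Figure D3:**
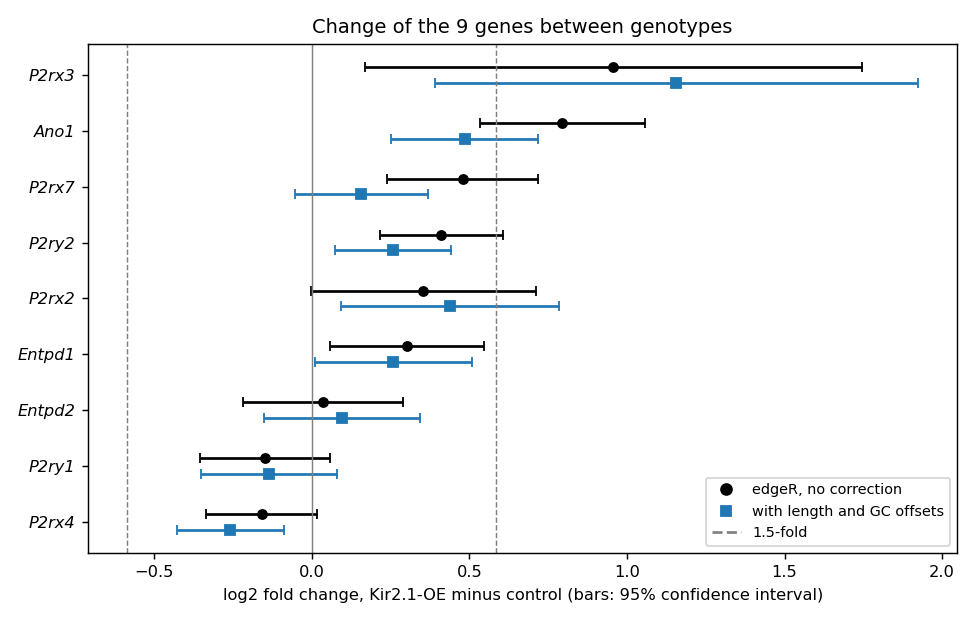
Log2 fold change of the 9 genes, Kir2.1-OE minus control, with 95% intervals, for edgeR's test without and with length and GC offsets; lines mark the 1.5-fold threshold. Ano1 falls from 0.79 to 0.48 with the offsets, whereas P2rx3 has the widest interval, 0.17 to 1.74 without them.

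P2rx2 (chr5:110339812-110343212, minus strand), an ATP-gated channel of hair cells, supporting cells and spiral ganglion neurons, did not pass the test although it had the most reads among the P2X genes. Its normalized counts were 8473, 8728 and 6464 in Kir2.1-OE and 5169.9, 5626 and 7725 in controls. Kir2.1-OE replicate 3 lay below control replicate 3, so the groups overlapped. The means were 7888 ± 1240.3 and 6174 ± 1363 (SD, n = 3), with a log2 fold change of 0.35 (SE 0.159, 95% interval -0.0038 to 0.71, adjusted p = 0.0901), and 0.44 with the offsets (adjusted p = 0.0517) or 0.26 with median-transcript offsets (adjusted p = 0.193). The adjusted p depended on single libraries and on the tool: the log2 fold change was 0.55 without control replicate 3 (adjusted p = 0.0110) and 0.46 without Kir2.1-OE replicate 3 (adjusted p = 0.0325), and DESeq2 gave 0.34 (adjusted p = 0.0473). Without replicate 1 or 2 of either group it ran from 0.24 to 0.29 (adjusted p from 0.221 to 0.281). The value was 0.36 by limma-voom (adjusted p = 0.0814) and 0.37 with the replicate block (adjusted p = 0.145). All of these had the direction of the full set.

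P2rx3 (chr2:84998583-85037462, minus strand), an ATP-gated channel known from sensory neurons, was the other gene called higher, and its call rested on few libraries. It had 397, 285 and 845 normalized counts in Kir2.1-OE and 257, 322 and 207 in controls. The groups overlapped, since Kir2.1-OE replicate 2 lay below control replicate 2, and Kir2.1-OE replicate 3 stood far above the other libraries. The log2 fold change was 0.96 (SE 0.351, 95% interval 0.17 to 1.74, adjusted p = 0.0454), and 1.16 with the offsets (adjusted p = 0.0273) or 0.92 with median-transcript offsets (adjusted p = 0.0469). Without Kir2.1-OE replicate 3 it was 0.36 (adjusted p = 0.173); the call was also lost without Kir2.1-OE replicate 1 (adjusted p = 0.0615), control replicate 1 (0.0929) or control replicate 3 (0.123), and by DESeq2 (adjusted p = 0.103). P2rx3 shares 51 exonic bases with Ssrp1 on the opposite strand, a gene with 25373 counts in the 6 libraries where P2rx3 had 2284.

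Neuronal markers moved with P2rx3. Of the 7 markers of spiral ganglion neurons 5 were called higher and none lower, with and without the offsets. Of all genes 15.5% were called higher without the offsets and 6.44% with them. The 7 markers summed to 28485, 19010 and 44090 normalized counts in Kir2.1-OE and to 14828, 16706 and 10961 in controls. No marker was at 0 in all libraries. Kir2.1-OE replicate 3 was highest and control replicate 3 lowest in both these sums and P2rx3. The counts of P2rx2 were ordered otherwise: Kir2.1-OE replicate 3, highest in neuronal markers, was the lowest of its group. It was also lowest of its group for the 4 inner hair cell markers. These summed to 14852, 15359 and 12415 in Kir2.1-OE and 10865, 11345 and 12238 in controls. This was not particular to inner hair cells. Among other lists, fibrocyte, endothelial and outer hair cell markers (24436, 27090 and 21913 in Kir2.1-OE) were also lowest of the group in replicate 3. Those of glia, macrophages and the ridge were not. Of the inner hair cell markers 1, Otof, was called higher and none lower. Its log2 fold change of 0.76 was -0.096 with the offsets, and no marker of the list was then called. Fgf8 had a log2 fold change of -0.32, with every Kir2.1-OE pool below every control pool. Atp2a3 had the most reads of the list, at 8656 ± 1007 and 7557 ± 863 normalized counts (SD, n = 3). The part of the neurons or hair cells captured in these values was not tested.

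**Figure D4:**
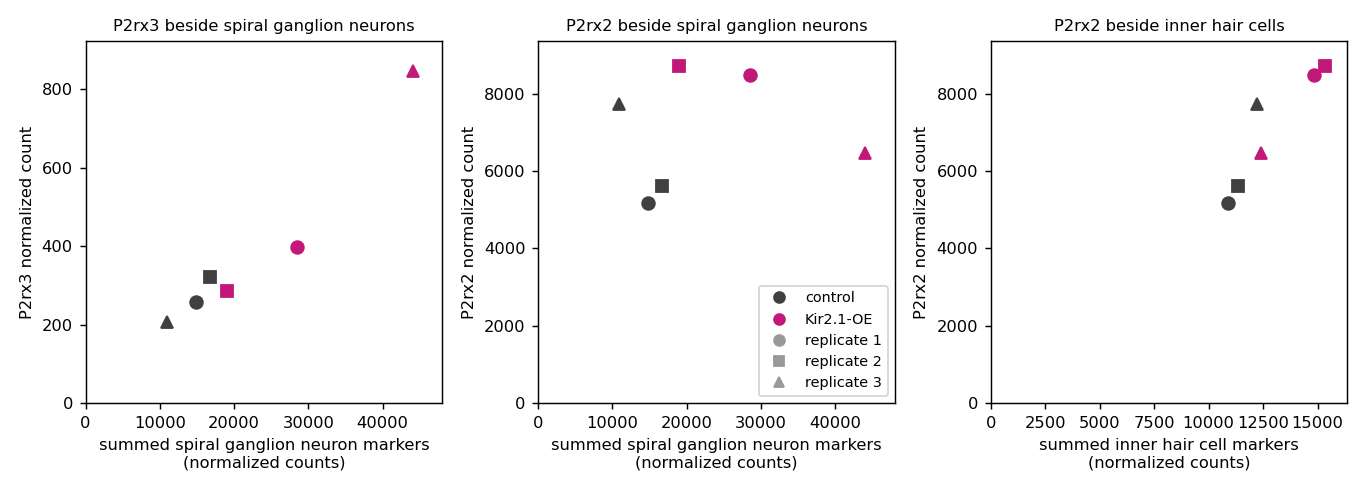
Normalized counts of P2rx3 and P2rx2 in each of the 6 libraries (vertical axes) against the summed normalized counts of spiral ganglion neuron markers or inner hair cell markers (horizontal axes). P2rx3 is highest, at 845, where the neuronal sum is 44090, while P2rx2 in that library is the lowest of the Kir2.1-OE pools.

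P2rx7 and P2rx4 lie on chromosome 5 on the same strand, 16111 bases apart (chr5:122643911-122691432 and chr5:122707544-122729738), and their values differed. P2rx7, whose channel is best known from immune and glial cells, had 809, 692 and 805 normalized counts in Kir2.1-OE and 557, 599.7 and 497 in controls, without overlap. Its log2 fold change was 0.48 (SE 0.106, 95% interval 0.24 to 0.72, adjusted p = 0.00484), under the fold change threshold, and 0.16 with the offsets (adjusted p = 0.225) but 0.40 with median-transcript offsets (adjusted p = 0.00954).

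P2rx4, whose channel is found in microglia, macrophages and epithelia, had 1234, 1318 and 1356 normalized counts in Kir2.1-OE and 1351, 1488 and 1524 in controls, with overlap by a few counts. Its log2 fold change was -0.16 (SE 0.0783, 95% interval -0.34 to 0.02, adjusted p = 0.117). With the offsets it was -0.26 (adjusted p = 0.0265), but -0.17 (adjusted p = 0.110) when they were taken from protein-coding transcripts and -0.16 (adjusted p = 0.121) from median transcripts. Upper quartile scaling gave -0.25 (adjusted p = 0.0224). The ratio of P2rx7 to P2rx4 was 0.591 ± 0.0655 in Kir2.1-OE and 0.380 ± 0.0473 in controls (SD, n = 3), without overlap (exact permutation p = 0.10). Of 8 macrophage markers none was called, with sums of 6397 to 6827 in Kir2.1-OE and 5744 to 6183 in controls. Of 5 glial markers 2 were called higher, with and without the offsets, with sums of 285605 to 376738 and 205053 to 262419. Of all genes 15.5% were called higher without the offsets and 6.44% with them. The part of these cells in the values of P2rx7 and P2rx4 was not tested.

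Neither ectonucleotidase was called. Entpd1 (chr19:40612366-40741602, plus strand), encoding CD39, which splits ATP and ADP to AMP, had 545, 573 and 519 normalized counts in Kir2.1-OE and 389, 469 and 469 in controls. The groups did not overlap, and the log2 fold change was 0.30 (SE 0.108, 95% interval 0.06 to 0.55, adjusted p = 0.0413), under the fold change threshold; with the offsets it was 0.26 (adjusted p = 0.100) and with median-transcript offsets 0.41 (adjusted p = 0.0141). With 1 library left out, the adjusted p of Entpd1 ran from 0.0495 to 0.165. Entpd2 (chr2:25395874-25401321, plus strand), whose enzyme prefers ATP and leaves ADP, had 506, 563 and 476 against 447, 551 and 509 normalized counts. Its log2 fold change was 0.035 (SE 0.113, 95% interval -0.22 to 0.29, adjusted p = 0.815), 0.097 with the offsets, -0.12 with median-transcript offsets and -0.053 under upper quartile scaling. Entpd2 shares 612 exonic bases with Npdc1 on the same strand, which had 26112 counts to its 3058, so the split of reads between them is uncertain.

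The other genes of the chain were 63 genes in 7 lists, of which 59 were tested; 11 were called higher and none lower, beside 15.5% and 5.08% of all genes, with a median log2 fold change of 0.20. With the offsets 5 were higher and 1 lower, beside 6.44% and 3.43% of all genes, and with median-transcript offsets 10 were higher and none lower. The list that carries the signal from P2Y receptors to calcium held most of them. Of its 13 genes 7 were called higher and none lower, with a median log2 fold change of 0.60, and 3 were called higher with the offsets, with a median of 0.19. Itpr3, an IP3-gated calcium channel of the store, had 2941, 2669 and 2982 normalized counts in Kir2.1-OE and 882, 1192 and 881 in controls (log2 fold change 1.54, SE 0.120, adjusted p = 1.2e-04, and 0.59 with the offsets). Itpr2, of the same family, had a log2 fold change of 1.26 (0.50 with the offsets, under the threshold), and Plcb4, a phospholipase that makes IP3, 1.18 (1.02 with the offsets). The gene of the list with the most reads was Atp2a2, the pump that refills the store, at 14996 ± 159 and 10432 ± 492 (SD, n = 3), a log2 fold change of 0.52 under the threshold and 0.14 with the offsets (adjusted p = 0.136).

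Of 7 genes that release ATP 1 was called higher and none lower, beside 15.5% and 5.08% of all genes. With the offsets 2 were called higher and 1 lower, beside 6.44% and 3.43% of all genes. Panx2, a pannexin, was called higher with and without the offsets, at 252, 209 and 290 normalized counts in Kir2.1-OE and 108, 126 and 87.5 in controls (log2 fold change 1.22, SE 0.191, adjusted p = 8.63e-04, and 0.80 with the offsets). Gjb2, a connexin of supporting cells and the gene of this list with the most reads, had 42080 ± 2365 and 40895 ± 5258 normalized counts (log2 fold change 0.041, adjusted p = 0.760, and 0.19 with the offsets). With the offsets, Gja1 was also called higher (0.66) and Panx1 lower (-0.67), each with overlapping groups.

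Of 7 other P2X and P2Y genes tested none was called; their median log2 fold change was 0.14 (0.24 with the offsets), and P2ry12, a receptor of microglia and macrophages, had the most reads at 216 ± 17.5 and 195 ± 21.9 normalized counts (log2 fold change 0.15, and 0.39 with the offsets). None of 11 genes listed as other ectonucleotidases was called, with a median of 0.16 with and without the offsets. Enpp2 had the most reads at 14888 and 13295 (log2 fold change 0.16, and 0.28 with the offsets). The list was made from gene names, and whether each product splits ATP at the cell surface was not tested. Of 7 tested genes of adenosine receptors and handling, Slc29a2, a nucleoside transporter, was called higher (log2 fold change 0.78, adjusted p = 0.0285), with overlapping groups, and not with the offsets. The list had a median of -0.23 (-0.15 with the offsets), and it summed to 5936 to 6401 normalized counts in Kir2.1-OE and 7048 to 7066 in controls. Slc29a1, with the most reads, had 3578 ± 191 and 4196 ± 21.6 normalized counts (SD, n = 3), without overlap. Its log2 fold change was -0.23 (adjusted p = 0.0176), under the threshold, and -0.17 with the offsets (adjusted p = 0.0620). None of 8 tested relatives of Ano1 was called, with a median of 0.37 that was 0.029 with the offsets, and Ano6, a phospholipid scramblase, had the most reads (log2 fold change 0.35, and 0.030 with the offsets).

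Among 6 genes of chloride loading and of the hair cell's response, 2 were called higher and none with the offsets, beside 15.5% and 6.44% of all genes. Cacna1d, the main calcium channel of inner hair cells, had 1608 ± 192 and 836 ± 30.5 normalized counts (SD, n = 3), a log2 fold change of 0.94 that was 0.23 with the offsets. Kcnma1, a calcium-activated potassium channel, had a log2 fold change of 0.80 (0.23 with the offsets). Slc12a2, the cotransporter that loads cells with chloride and the gene of this list with the most reads, had 14453 ± 547 and 10952 ± 327 normalized counts, with a log2 fold change of 0.40 (adjusted p = 0.00139) under the threshold and 0.043 with the offsets.

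**Figure D5:**
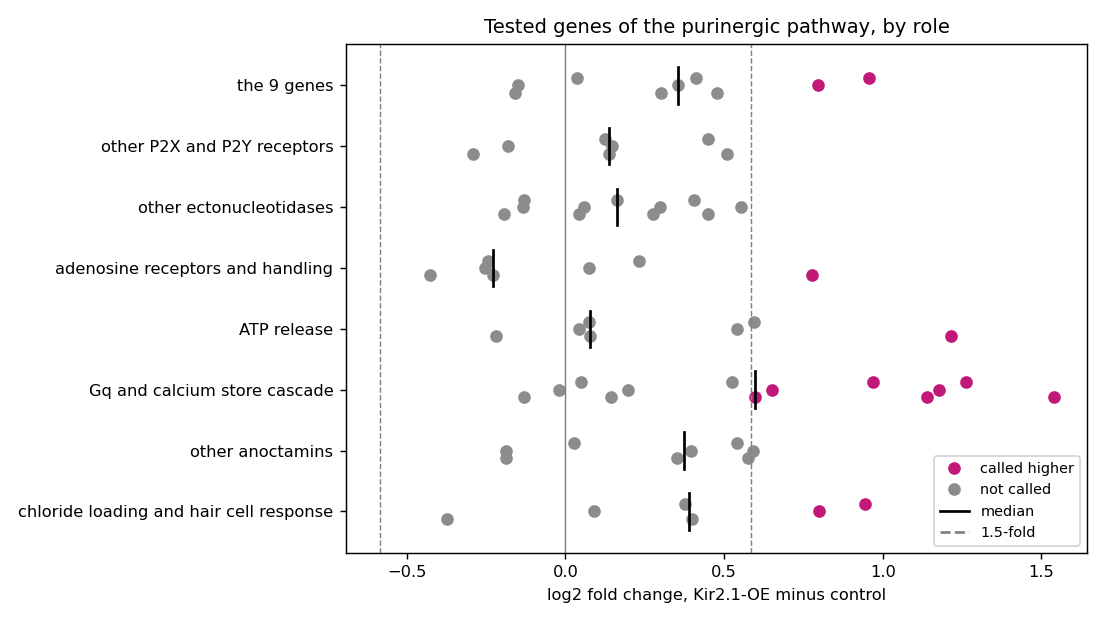
Log2 fold change of each tested gene in the 7 lists of other genes of the chain, Kir2.1-OE minus control, with called genes marked and lines at the 1.5-fold threshold. The calcium store list has 7 of 13 genes called higher, and the lists of other P2X and P2Y receptors, ectonucleotidases and anoctamins have none, beside 15.5% of all genes.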

How the data were processed

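RNA from 6 pools of cochlear sensory epithelium was enriched for poly(A), sequenced in pairs of reads and processed by the authors with the nf-core RNA pipeline on mm10. The authors deposited Salmon expected counts, which can be fractional (6.95% were), for 24411 gene symbols; versions, annotation and strand setting are not given in the sources used here. Values were rounded and tested with edgeR 4.0.16 (R 4.3.3), with TMM scaling, filterByExpr, the quasi-likelihood test over 15303 genes and Benjamini-Hochberg adjustment. The study's thresholds, an adjusted p under 0.05 and a fold above 1.5, made a call. A 95% interval is that of edgeR's fit. Normalized counts were scaled by TMM library sizes. At this depth 3 counts are at most 8.47e-06% of a library; such floors cover counting error only. Replicates differed by more than sampling noise, so each was counted.

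Transcript lengths and coordinates came from GENCODE vM21; 23376 symbols matched directly and 679 by an older symbol. Offsets were loess trends (span 0.4) of each library on the length and GC content of the longest transcript. Alternatives were other scalings and filters, DESeq2 1.42.0, limma-voom 3.58.1, each library left out, replicate number as a block, and 2 added after seeing the data, namely offsets from the longest protein-coding and from the median transcript; levels by protein-coding length were added likewise.

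The genes, marker lists and pathway lists were chosen with earlier results of these data known. Named beside the 9 genes were Kcnj2, up to 3 highest and 2 lowest called genes and the most abundant gene of each list. The 3 genes most like P2ry1 and Ano1 were named too. Chosen after their values were seen were Panx1 and Gja1, named for calls made only with the offsets. So were the ridge markers Tectb, Tecta, Epyc, Otoa and Otog and the inner hair cell markers Otof, Fgf8 and Atp2a3. Groups followed the labels. The header of control replicate 1 carries the number 4.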

Additional observations from a re-analysis of the deposited data

How the results depend on the processing

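The count of the 9 genes called higher, 2 with the tests of the report, was 1 under upper quartile scaling, with the replicate block, with DESeq2, with limma-voom, with the length and GC offsets and with offsets from protein-coding transcripts, 2 with offsets from median transcripts, 0 with block and offsets together and 0 by glmTreat, and 5 without the fold threshold; leaving out 1 library gave 1 to 2, with 1 when replicate 1 or 3 of either group was missing. The 11 other pathway genes called higher became 5 (and 1 lower) with offsets, with or without the block, 3 (1 lower) with protein-coding offsets, 10 with median-transcript offsets, 6 by glmTreat and 19 (3 lower) without the fold threshold. Over all genes, 2365 higher and 778 lower calls became 986 higher with offsets, 800 and 447 with block and offsets, 853 and 491 with protein-coding offsets, 1696 and 1054 with median-transcript offsets, 832 and 57 by glmTreat, 4184 and 3590 without the fold threshold, and 1378 lower under upper quartile scaling. Entpd2, not called, turned to -0.12 with median-transcript offsets, -0.053 under upper quartile scaling, -0.058 on leaving out Kir2.1-OE replicate 2 and -0.042 on leaving out control replicate 1, in a range of -0.058 to 0.11 over the libraries left out. With the replicate block P2rx3 had a log2 fold change of 0.82 (adjusted p = 0.108) and Ano1 0.79. Deviations of same-numbered libraries correlated at -0.0944, -0.215 and -0.205, so no positive correlation by replicate number was seen. With 3 pools per group, whose deviations are tied to each other, these values do not settle whether same-numbered pools shared a litter or batch. The cause of the shifts between settings was not tested. The lowest value of the 9 genes in any library was 207 normalized counts, for P2rx3.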

Other observations

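Among 13636 genes with a mean of at least 50 normalized counts, those whose log2 normalized counts followed P2ry1 most closely over the 6 libraries were Pigv, SlcUbl4a and Adprhl1, at Pearson correlations of 0.995, 0.989 and 0.986. Those closest to Ano1 were Fxr2, Smg5 and Cdc42bpg, at 0.999, 0.999 and 0.998, with log2 fold changes of 0.28, 0.48 and 0.97. The libraries share the contrast of the 2 groups, and the correlations are a description.

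Of the other ratios chosen after the values were seen, P2ry2 to P2ry1 was 0.800 ± 0.122 in Kir2.1-OE and 0.541 ± 0.0642 in controls (SD, n = 3), and Entpd1 to Entpd2 was 1.06 ± 0.0389 and 0.881 ± 0.0366, both without overlap between groups (exact permutation p = 0.10, the smallest possible). P2rx3 to P2rx2 was 0.0701 ± 0.0530 and 0.0445 ± 0.0159, with overlap (exact permutation p = 0.60).

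The remaining marker lists stand beside 15.5% of all genes called higher and 5.08% lower, or 6.44% and 3.43% with the offsets. Of 6 shared hair cell markers 2 were called higher and none lower, and none with the offsets. Of 3 outer hair cell markers 2 were called higher and none lower, and 1 higher with the offsets. Their log2 fold changes ran from -0.30 to 0.62. They summed to 21913 to 27090 normalized counts in Kir2.1-OE and 24093 to 30502 in controls. Of 5 supporting cell markers 1 was called higher and none lower, with and without the offsets. Those summed to 54875 to 63175 in Kir2.1-OE and 54798 to 63168 in controls. Of 5 greater epithelial ridge markers 2 were called higher and 1 lower, and with the offsets 1 higher and 2 lower. Called higher, with none lower, were 4 of 6 endothelial, 3 of 5 pericyte and smooth muscle, 1 of 5 fibrocyte and 2 of 5 cartilage and bone markers. With the offsets these counts were 2, 2, 1 and 1. Pericyte and smooth muscle markers summed to 9297 to 9507 normalized counts in Kir2.1-OE and 5237 to 6541 in controls. Melanocyte markers had 2 of 4 tested called lower and erythrocyte markers 2 of 5, with none higher. With the offsets 2 melanocyte markers and no erythrocyte marker were called lower. Erythrocyte markers summed to 7221 to 8895 in Kir2.1-OE and 11064 to 31336 in controls. These sums were not tested against the 9 genes.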
